A study of Arabidopsis thaliana with 4 samples.

Results

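Small nucleolar RNA (snoRNA) genes were examined in chromatin immunoprecipitation sequencing (ChIP-seq) of FHY1 from Arabidopsis thaliana seedlings. The members are the 287 nuclear genes typed as snoRNA, on all 5 chromosomes, among 37899 nuclear genes of a RefSeq table of assembly TAIR10.1. They were chosen by gene type alone, with no measured value. All samples came from 4-day-old etiolated seedlings of the fhy1-1 mutant that carried 35S:GFP-FHY1 and received 3 h of far-red light. The constitutive 35S promoter drives the fusion protein throughout the plant, so the level of FHY1 is not that of the native gene. The ChIP was done in 3 biological replicates; the single input sample is not analysed here. Signal that any antibody would give at a locus and association with FHY1 therefore cannot be told apart. As antibody, the sample labels name anti-GFP and the design text one against FHY1.

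FHY1 is a shuttle protein that brings phyA, the receptor of far-red light, into the nucleus, where both associate with chromatin. snoRNAs guide the chemical modification and cleavage of ribosomal RNA in the nucleolus. Those of the C/D box class direct methylation by fibrillarin, and those of the H/ACA class direct pseudouridine formation by dyskerin. Plants hold many of their snoRNA genes in clusters that are transcribed as one precursor, while others lie in introns of protein-coding genes. The gene table does not give the class of most members: 12 of the 287 have a symbol, such as U3B, U3D, U49.1 and SNOR77, and the others are named by locus code. The genes are short, with a median length of 92 bp and a range of 19 to 702 bp.

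The peak lists of the 3 replicates differed in size, with 8423, 28170 and 19150 peaks in replicates 1, 2 and 3. These peaks covered 9.51, 22.4 and 19.0 Mb and held 4541953, 12651543 and 10390173 sequence tags, while the depth of the libraries is unknown. Replicate 1 stood apart, with the fewest peaks and the highest fold enrichment, 86.0 against 11.5 and 11.3 in replicates 2 and 3. No peak over a snoRNA gene in replicate 1 had a fold above 6.16. The fold enrichments, scores and false discovery rates are the authors' own values for each peak, used here only for description and for ranks inside 1 list.

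FHY1 peaks overlapped a minority of snoRNA genes, and the same gene was seldom overlapped in every replicate. Peaks overlapped 60 of the 287 genes in replicate 1 (20.9%), 127 in replicate 2 (44.3%) and 104 in replicate 3 (36.2%), counting any overlap of at least 1 bp. The order of the replicates follows the sizes of their peak lists. Among all 37899 nuclear genes the shares were 25.5%, 54.2% and 45.7%. Peaks of all 3 replicates overlapped 39 snoRNA genes (13.6%), against 19.3% of all nuclear genes. Peaks of at least 2 replicates overlapped 85, which is 29.6% against 42.1%. A further 82 genes were overlapped in 1 replicate, and 120 (41.8%) in none. The count of 39 is sensitive to how peaks are counted: it was 18 with scores of at least 100, 19 with the 8423 highest-scoring peaks of each list and 3 with the peak midpoint within 200 bp of the gene. The share of all nuclear genes under these settings was not computed, so whether it falls alike is unknown. Replicates 2 and 3 shared 67 genes, and replicate 1 shared 48 with each of them, with the 39 included in each count.

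Protein-coding genes, with a median length of 2078 bp, were overlapped in 30.3%, 64.2% and 54.7% of cases. They offer a longer target than snoRNA genes, and the part of length in these shares was not tested. With a single position per gene the order of the types turned, although the midpoint of a long gene lies farther from its ends than that of a short one. The midpoint of the gene lay in a peak for 29.2% ± 11.3 of snoRNA genes (SD, n = 3 replicates), against 8.65% ± 2.48 of protein-coding genes. The snoRNA share was higher in each replicate, by 20.5 ± 8.82 percentage points. Peaks of all 3 replicates covered the midpoint of 28 snoRNA genes (9.76%), against 2.57% of all nuclear genes. On this measure other RNA genes were higher or lower than snoRNA genes. The share was 22.1% for tRNA, 20.7% for snRNA, 8.39% for long noncoding RNA and 3.07% for miRNA genes. With 3 replicates, an exact two-sided sign-flip permutation test over replicates cannot give a p below 0.25, so no difference between classes of genes could pass a conventional threshold here. Directions and the spread over replicates are given in its place. Over the 12 class comparisons made, the adjusted p (Benjamini-Hochberg) was 0.333 for the 9 whose direction was the same in all 3 replicates.

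Genes of tRNAs and snRNAs were overlapped more often than those of snoRNAs, and genes of miRNAs less often. tRNA genes, with a median length of 73 bp, were overlapped in 29.8%, 53.8% and 49.4% of 625 cases. The snoRNA share differed from it by −8.85, −9.51 and −13.2 percentage points. Genes of snRNAs, the RNAs of the spliceosome, were overlapped in 27, 41 and 37 of 82 cases. The snoRNA share was lower than theirs in each replicate, with a difference of −8.89 ± 3.14 percentage points. miRNA genes were overlapped at 9.51%, 20.9% and 19.3% of 326.

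**Figure D1:**
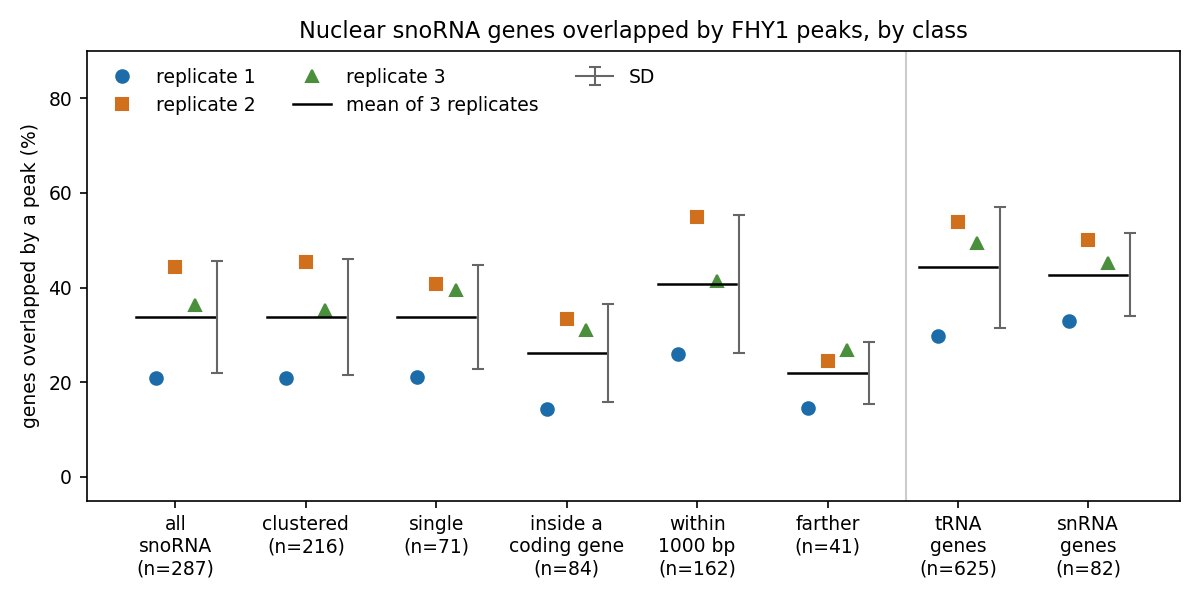
Share of genes overlapped by an FHY1 peak (percent, vertical axis) for snoRNA genes by class and for tRNA and snRNA genes. Each symbol is 1 replicate, the line is the mean and the bar the SD of the 3 replicates; snoRNA genes within 1000 bp of a protein-coding gene lie above those inside or farther from one in each replicate, while clustered and single genes have the same mean of 33.8%.

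Over all members, clustering made no consistent difference to the overlap of a snoRNA gene. A gene was called clustered if another snoRNA gene lay within 1000 bp, which held for 216 genes in 71 clusters, and 71 genes were single. The widest gap counted as clustered was 836 bp and the narrowest counted as single was 1067 bp. In replicates 1, 2 and 3 peaks overlapped 45, 98 and 76 clustered genes, which are 20.8%, 45.4% and 35.2%. Single genes were overlapped 15, 29 and 28 times, which are 21.1%, 40.8% and 39.4%. The clustered share was lower by 0.293, higher by 4.53 and lower by 4.25 percentage points, so its direction differed between replicates (mean −0.00652 ± 4.40, exact sign-flip permutation p = 1.0). Peaks of all 3 replicates overlapped 30 clustered genes (13.9%) and 9 single ones (12.7%), a difference that turned to −6.41 percentage points without replicate 1 and −2.11 without replicate 2.

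Position relative to protein-coding genes went with larger differences. Of the 287 genes, 84 overlapped a protein-coding gene, 162 lay outside but within 1000 bp of one, and 41 lay farther away, up to 56548 bp. The classes next to the limit were close in distance, with 996 bp for the last gene counted as near and 1007 bp for the first counted as far. Near genes were overlapped in 42, 89 and 67 cases in replicates 1, 2 and 3, which are 25.9%, 54.9% and 41.4%. Genes inside protein-coding genes reached 12, 28 and 26 cases, which are 14.3%, 33.3% and 31.0%. Far genes reached 6, 10 and 11 cases, which are 14.6%, 24.4% and 26.8%. Among all nuclear genes the shares were 25.5%, 54.2% and 45.7%. The near share was close to these in replicates 1 and 2 and below in replicate 3. Inside and far shares were below them in each replicate. The near share was above the inside share by 11.6, 21.6 and 10.4 percentage points and above the far share by 11.3, 30.5 and 14.5. Far and inside genes were not told apart, since the direction of their difference varied between replicates (−4.24 ± 4.65 percentage points). Peaks of all 3 replicates overlapped 28 near genes (17.3%), 8 inside (9.52%) and 3 far (7.32%), against 19.3% of all nuclear genes. Inside protein-coding genes lay 45 of the 216 clustered genes and 39 of the 71 single ones. There the single share was higher in each replicate, at 17.9%, 35.9% and 33.3% against 11.1%, 31.1% and 28.9%. Near single genes reached 27.6%, 51.7% and 51.7% of 29, and near clustered genes 25.6%, 55.6% and 39.1% of 133. No peak overlapped the 3 far single genes. The part of position in the clustered share was not tested. Near tRNA genes were still overlapped more often than near snoRNA genes, at 37.1%, 64.7% and 62.2%, while near snRNA genes were not so in replicate 2, with 11, 18 and 17 of 34 overlapped. Among far genes the order was the opposite for tRNA genes: 6.25%, 14.8% and 10.2% of 128 far tRNA genes were overlapped, below the far snoRNA genes in each replicate. Far snRNA genes were above the far snoRNA genes in each replicate, with 5, 5 and 7 of 11 overlapped.

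On either side of the end of a protein-coding gene, the snoRNA genes closest to that end were overlapped most often. Inside a host gene, peaks overlapped 30.4%, 43.5% and 65.2% of the 23 snoRNA genes within 250 bp of the host's nearer end. Of the 43 snoRNA genes more than 500 bp from it, they overlapped 2.33%, 30.2% and 9.30%. The 18 genes in between were overlapped in 22.2%, 27.8% and 38.9% of cases, so in replicate 2 they did not exceed those deepest inside. Outside, 33.3%, 66.7% and 53.8% of the 39 genes within 300 bp of the neighbour were overlapped, and 18.9%, 43.4% and 35.8% of the 53 genes more than 600 and up to 1000 bp away. The class nearer to the gene end was higher in all 3 replicates in both cases, by 32.4 ± 21.7 percentage points inside and 18.6 ± 4.43 outside. These distance classes were chosen with earlier results of these data known. Strand was not used here, so the start and the end of a gene were not told apart. Where the neighbouring protein-coding gene itself had peaks of all 3 replicates, 23 of 73 near snoRNA genes had them too (31.5%), against 5 of 89 where it had not (5.62%). The snoRNA gene and its neighbour can share a peak in this count.

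**Figure D2:**
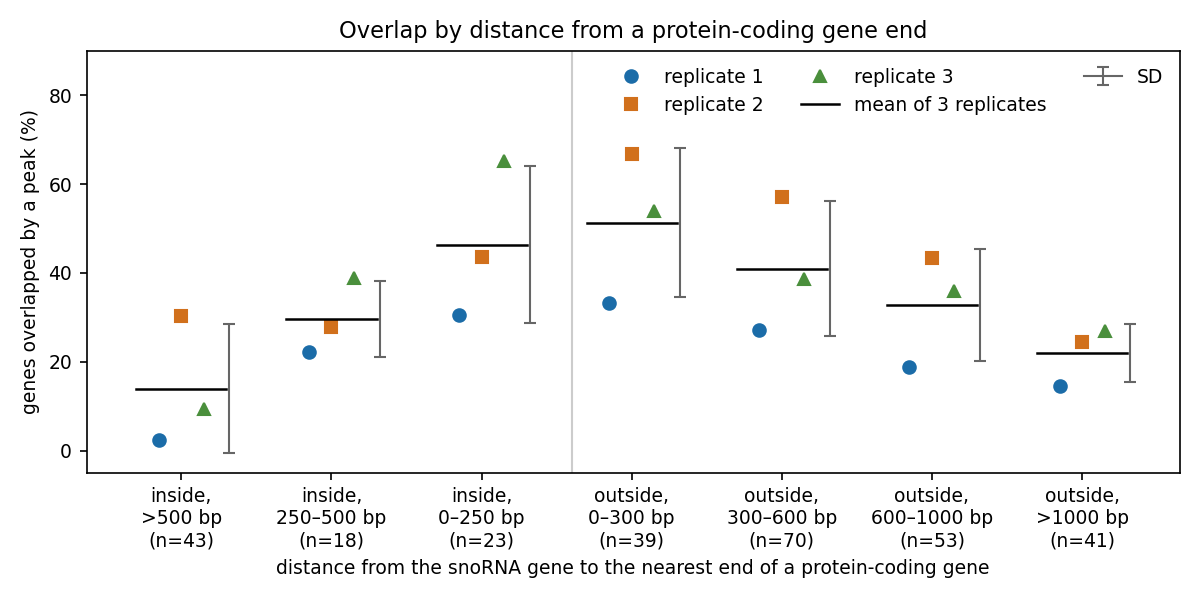
Share of snoRNA genes overlapped by a peak (percent, vertical axis) by distance from the nearest end of a protein-coding gene, inside it on the left and outside it on the right. Symbols are replicates, lines means and bars the SD of 3 replicates, which reaches below 0 for the class deepest inside; the means reach 46.4% just inside and 51.3% just outside the gene end, and 22.0% beyond 1000 bp.

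Peak summits lay beside the snoRNA genes and seldom on them. The summit is the highest point of a peak, read here from the layout of the lists. In replicates 1, 2 and 3, the summit of the highest-scoring peak over a gene lay a median of 309, 303 and 316 bp from that gene. It lay on the gene itself for 1 of 60, 9 of 127 and 2 of 104 genes. Within 100 bp of the gene lay 5.00%, 13.4% and 7.69% of the summits.

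The summits of tRNA and snRNA peaks lay closer to the genes. For tRNA genes the median distance was 57.5, 62.0 and 57.0 bp, and 65.1%, 63.7% and 67.6% of summits lay within 100 bp. The snRNA genes had medians of 88.0, 123 and 95.0 bp, with 55.6%, 46.3% and 54.1% within 100 bp. The snoRNA distance exceeded that of tRNA genes by 250.5 ± 9.04 bp and that of snRNA genes by 207 ± 23.7 bp (SD of the difference over 3 replicates). It did so in every replicate (exact sign-flip permutation p = 0.25, the smallest possible). Distances were taken per gene, and 1 peak covered 1.36, 1.55 and 1.46 snoRNA genes on average. A summit can therefore count for several genes of a cluster, and the part of this in the difference was not tested. Counted once per peak, the summit lay on a snoRNA gene for 2.27%, 11.0% and 2.82% of peaks over snoRNA genes. Peak width was alike in the 3 types, with medians of 1130, 982 and 1168 bp over snoRNA genes, 1074.5, 946.5 and 1084 bp over tRNA genes and 1173, 1022 and 1122 bp over snRNA genes.

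**Figure D3:**
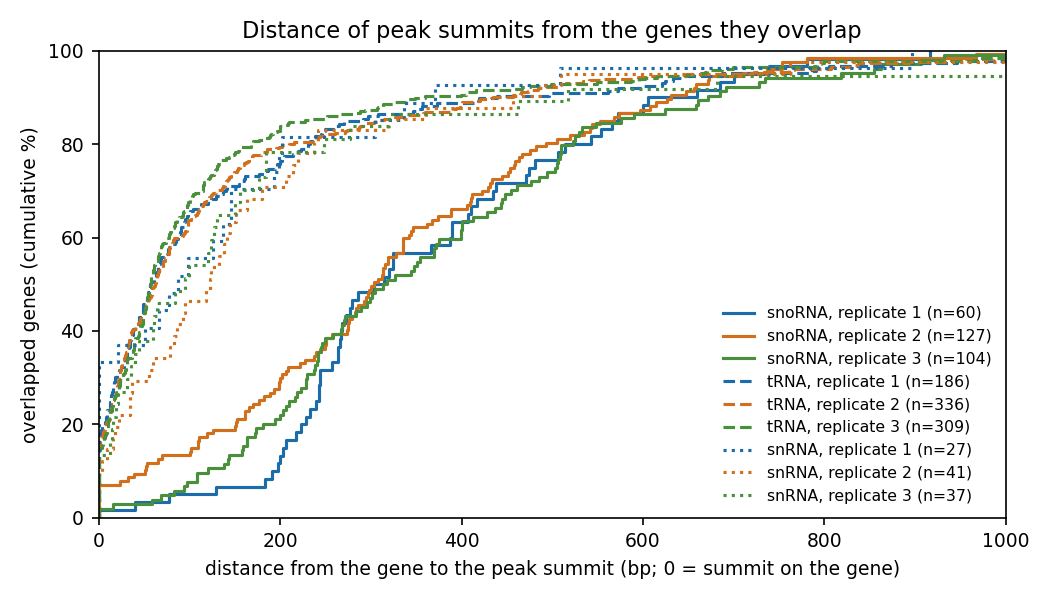
Cumulative share of overlapped genes (percent, vertical axis) by the distance in bp from the gene to the summit of its highest-scoring peak, with 1 line per gene type and replicate and the number of overlapped genes in the legend. The snoRNA lines (solid) reach the middle of their range near 310 bp in each replicate, those of tRNA and snRNA genes between 57.0 and 123 bp.

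Most summits of peaks over snoRNA genes fell in the flanks of protein-coding genes. The genes overlapped in replicates 1, 2 and 3 were covered by 44, 82 and 71 peaks, so that 1 peak covered 1.36, 1.55 and 1.46 snoRNA genes on average. Summits beyond every protein-coding gene but at most 1000 bp from one belonged to 33, 52 and 51 of these peaks (70.1% ± 5.99, SD, n = 3), against 46.8%, 38.7% and 43.5% of all peaks in each list. Summits inside a protein-coding gene made up 13.6%, 28.0% and 16.9%, against 41.0%, 45.1% and 41.6% of all peaks. Both shares depend in part on how the peaks were picked, since 162 of the 287 snoRNA genes themselves lay in such flanks. How far this placement accounts for the shares was not tested. Of the peaks over snoRNA genes, 70.5%, 72.0% and 78.9% also touched a protein-coding gene, close to the 79.9%, 72.3% and 76.7% of all peaks.

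By the authors' score and fold, peaks over snoRNA genes were near the middle of each list, while their tag counts were above the median peak. The highest-scoring peak over each gene had a median score percentile of 46.7, 60.6 and 57.0 within the lists of replicates 1, 2 and 3. Its fold enrichment had a median of 4.12, 4.00 and 4.35, against 4.06, 3.92 and 4.16 for all peaks. The tag count was 534, 608 and 663 at the median, against 444, 360 and 451.5 for all peaks, within ranges of 208 to 1871, 157 to 1696 and 198 to 1821 tags. These peaks were also wider, with medians of 1130, 982 and 1168 bp against 957, 689 and 859 bp for all peaks. The part of width in the tag counts was not tested. The highest fold over any member was 6.16 in replicate 1, at AT5G00750 and AT5G00755. It was 7.98 in replicate 2, at AT3G05715, and 8.80 in replicate 3, at AT2G04965.

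The 39 genes overlapped in all 3 replicates lay at 29 places, 20 clusters and 9 single genes. Their folds ran from 2.99 to 7.69. The median fold was 4.15 in replicate 1, 4.56 in replicate 2 and 5.00 in replicate 3. For 33 of the 39 genes, all 3 summits lay outside the gene and on the same side of it, and for 26 genes they lay within 100 bp of each other. The median distance between the outermost of the 3 summits was 64.0 bp, and it exceeded 500 bp for 5 genes: AT1G19376, AT1G07487, AT1G19373, AT5G06565 and AT1G05417.

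Among these 39, the highest mean score percentile was that of AT1G05563 on chromosome 1, a gene of 68 bp within the protein-coding gene AT1G20690. Its peaks had folds of 4.50, 5.99 and 5.02 and held 624, 966 and 1178 tags in replicates 1, 2 and 3. They ran from 7176030 to 7177112, 7176145 to 7177083 and 7176007 to 7177316. The summits lay 506, 423 and 503 bp to one side of the snoRNA gene, and within 83.0 bp of each other.

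AT1G19376 and AT1G19373, a pair on chromosome 1 beside AT1G19380, held ranks 2 and 15. In replicates 2 and 3 a single peak covered both, with folds of 5.57 and 5.77. Replicate 1 had 1 peak for each of them, with folds of 5.16 and 4.43. The summits of AT1G19376 lay on one side in replicates 1 and 3 and on the other in replicate 2, 1032 bp apart at most. AT1G07487, of rank 3, lay 75 bp from the end of its host AT1G48460, with folds of 4.44, 4.99 and 5.41 and summits up to 819 bp apart.

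At NYC1 on chromosome 4, a gene for a chlorophyll b reductase, a cluster of 3 snoRNA genes was covered whole in every replicate. A single peak held AT4G06010, AT4G06015 and AT4G13245 each time, from 7683203 to 7685117, 7683078 to 7684452 and 7683202 to 7684597. The folds were 4.59, 4.28 and 7.55, with replicate 3 above the other two. The summits lay within 39 bp of each other, on the side of the cluster away from NYC1, since AT4G13245 was the member nearest to NYC1, at 13 bp, and farthest from the summits, at 514, 553 and 523 bp.

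Among the others in the first 12 of the 39, AT3G50825 lay 254 bp from COR413-PM2, a cold-regulated membrane protein gene on chromosome 3. Its folds were 4.10, 7.69 and 4.15, highest in replicate 2. AT5G00750 and AT5G00755 lay beside mSFC1, which encodes a mitochondrial succinate-fumarate carrier, on chromosome 5 and shared peaks with folds of 6.16, 4.05 and 5.84. AT2G08910 lay 395 bp from SOUL-1, a haem-binding protein gene on chromosome 2, with folds of 3.51, 4.89 and 3.94. AT1G08107 and AT1G08113, of a cluster of 4 genes more than 1000 bp from AT1G56233, shared peaks with folds of 3.86, 6.47 and 4.03. In these places 1 peak per replicate accounts for the pair, so the 2 entries are not independent.

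**Figure D4:**
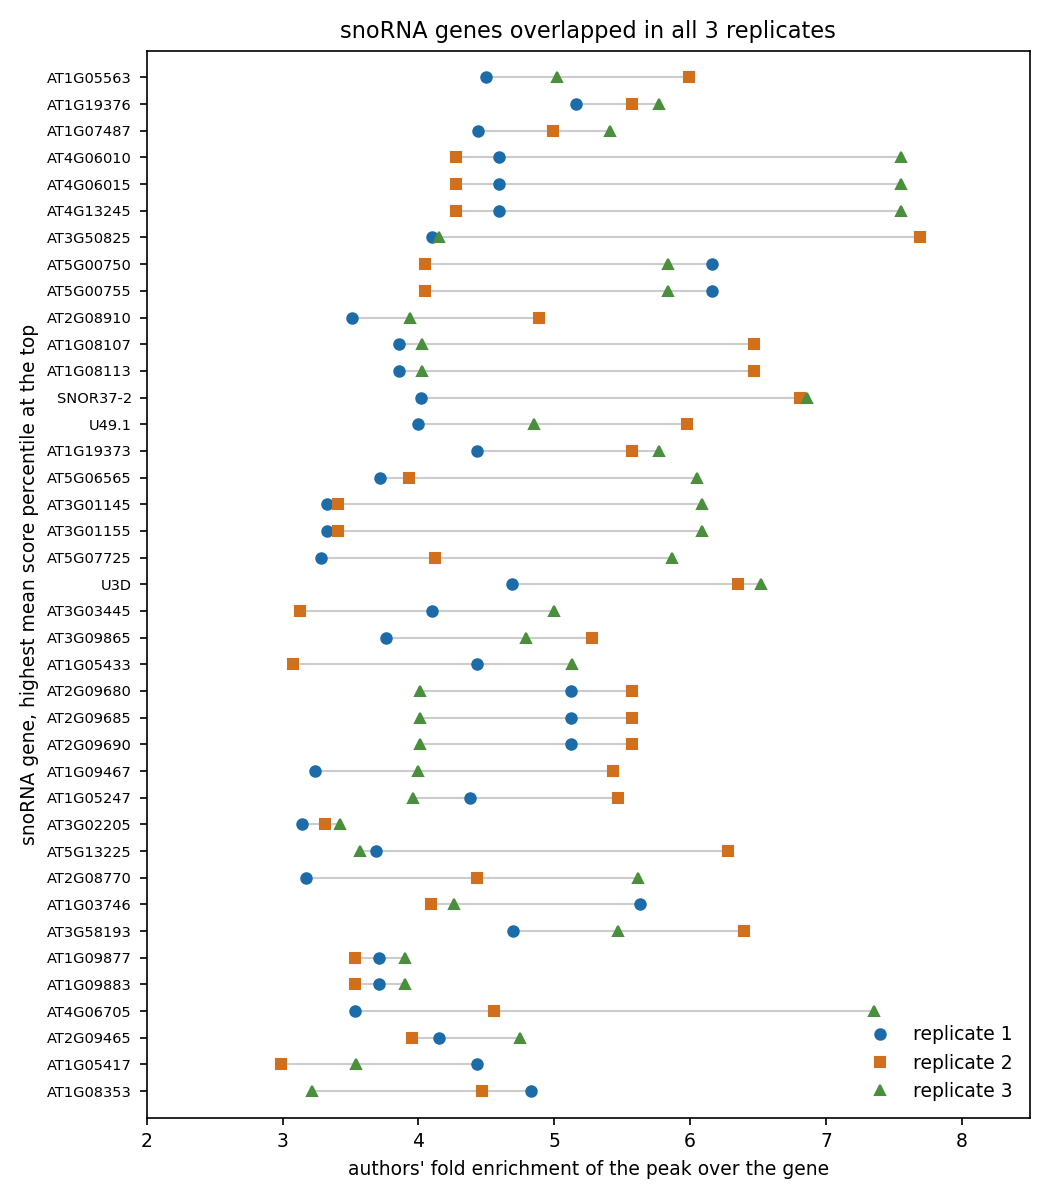
Authors' fold enrichment (horizontal axis, linear) of the highest-scoring peak over each of the 39 snoRNA genes overlapped in all 3 replicates, with 1 symbol per replicate and a line from the lowest to the highest value. Genes are ordered by mean score percentile; neighbouring rows with identical values share peaks, and folds run from 2.99 to 7.69.

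The genes with symbols showed the same range. U49.1, a C/D box gene at UBQ11 on chromosome 4, had folds of 4.00, 5.98 and 4.85, and SNOR37-2 on the same chromosome had 4.02, 6.81 and 6.86. SNOR105 was overlapped in replicates 2 and 3, with folds of 5.04 and 3.21, and SNOR108 with 3.27 and 3.96. SNOR95 (3.84) and SNOR111 (5.96) were overlapped in replicate 3 alone, and SNOR30 (5.46) and SNOR77 (3.73) in replicate 2 alone.

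The genes for U3, the snoRNA that takes part in early cleavage of the ribosomal RNA precursor, differed from most members in that summits lay on or close to them. U3D on chromosome 5, 361 bp long and crossing an end of HSFA9, a heat shock factor gene, was overlapped in all 3 replicates. Its folds were 4.69, 6.35 and 6.52, and its peaks held 829, 563 and 795 tags. They ran from 21945368 to 21947349, 21945504 to 21946126 and 21945421 to 21946815. The summits lay 40, 53 and 16 bp from U3D. U3B, 702 bp long on the same chromosome, was overlapped in replicates 2 and 3, with folds of 4.39 and 4.11 and both summits on the gene. U3B and U3D are the longest members.

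Clusters were often overlapped in part. Of the 71 clusters, 8, 21 and 16 had every gene overlapped in replicates 1, 2 and 3, and 19, 28 and 25 had some. No gene was overlapped in 44, 22 and 30 clusters, and 10 clusters were untouched in every replicate. A cluster with more than 1 peak was rare, at 2, 3 and 1 of 71. In 4 clusters every gene was overlapped in all 3 replicates: AT4G06010 to AT4G13245, AT1G19373 with AT1G19376, AT5G00750 with AT5G00755, and AT3G01145 with AT3G01155 beside the zinc finger gene ZFN1, whose folds were 3.33, 3.41 and 6.09.

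The 7 clusters of 5 or 6 genes differed widely. In the cluster of 6 genes from AT2G09680 to AT2G09705 on chromosome 2, between AT2G46190 and AT2G46200, 3, 3 and 5 genes were overlapped. One peak per replicate, with folds of 5.12, 5.57 and 4.01, covered AT2G09680, AT2G09685 and AT2G09690 each time. Its summit lay on AT2G09680 in all 3 replicates, the only member of the 39 for which this held. AT2G09705, at the other end of the cluster, was not overlapped. The other cluster of 6, from AT3G07715 to AT3G47348 on chromosome 3, had no peak over any gene.

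Of the 5 genes from AT1G04187 to AT1G04197, replicate 2 alone had a peak, over 2 genes with a fold of 3.24. The cluster from AT1G06233 to AT1G06253 had 1 gene overlapped in replicate 2 (fold 5.02) and 2 in replicate 3 (3.44). In the cluster from AT1G06263 to AT1G06283, inside AT1G29465, the gene AT1G06263 was overlapped in replicate 3 (4.92) and the others in none. The cluster from AT4G06305 to SNOR37-2 on chromosome 4 had 1, 3 and 1 genes overlapped, and SNOR37-2 was the one overlapped in all 3 replicates. From AT4G39361 to AT4G39366 on the same chromosome, 1, 4 and 0 genes were overlapped, with folds of 4.68 in replicate 1 and 3.34 in replicate 2. These last clusters of 5 were added after their values were seen.

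**Figure D5:**
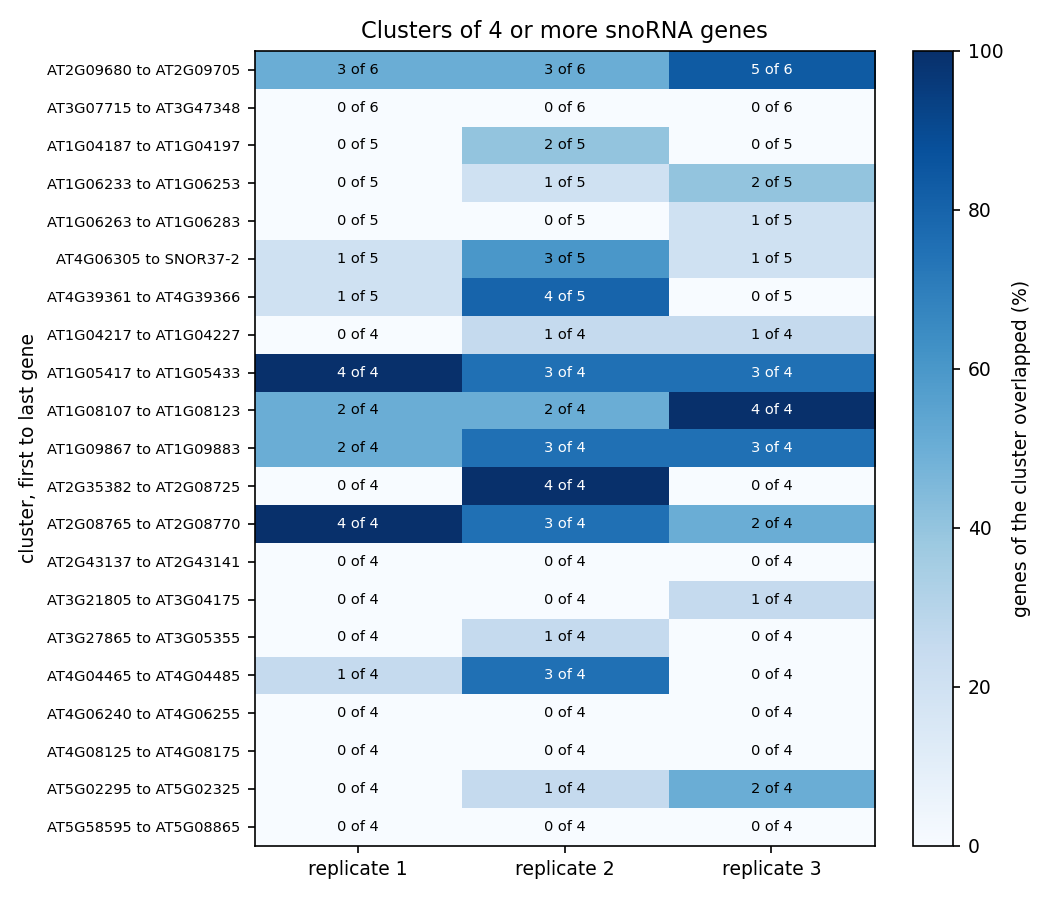
Number of genes overlapped by a peak in each cluster of 4 or more snoRNA genes (rows, first to last gene) and replicate (columns), with the color giving the percent of the cluster. The cluster AT2G09680 to AT2G09705 has 3, 3 and 5 of 6 genes overlapped, the cluster AT3G07715 to AT3G47348 has 0 of 6 in each replicate.

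Protein-coding genes that hold snoRNA genes had peaks more often than protein-coding genes as a whole. Their share could hardly fall below that of the snoRNA genes within them. A peak over a snoRNA gene wholly inside its host also overlaps the host. The 84 inside members lay in 58 host genes, 14 of which held more than 1, and 4 members crossed a host's end. Hosts had a peak in 25, 46 and 44 cases (43.1%, 79.3% and 75.9%), against 30.3%, 64.2% and 54.7% of all protein-coding genes, at a median length of 2056 bp against 2078 bp. Peaks of all 3 replicates overlapped 22 hosts (37.9%), against 23.6% of protein-coding genes. In 7 of the 22, a snoRNA gene within was overlapped in all 3 replicates as well, in 8 it was overlapped in 1 or 2, and in 7 in none. Those 7 were ADK, UBQ1, EIF3G1, AT3G51800, AT1G03940, AT4G36960 and AT5G27850. UBQ1 encodes a ubiquitin extension protein and EIF3G1 a translation initiation factor.

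The hosts whose snoRNA gene was also overlapped in all 3 replicates were AT1G20690, AT1G48460 and HSFA9, described above, and AT3G09440, AT2G35750, AT1G79520 and AT4G17390. AT3G02205 in AT3G09440 had folds of 3.14, 3.31 and 3.42, with summits 700, 672 and 818 bp away. AT4G06705 in AT4G17390 had 3.53, 4.56 and 7.35, and AT2G08770 in AT2G35750 had 3.17, 4.43 and 5.62. AT1G09877 and AT1G09883 in AT1G79520 shared peaks with 3.71, 3.53 and 3.90. EIF4A1 and EIF4A-2, genes for the helicase of translation initiation, had peaks of all 3 replicates, while their snoRNA genes were overlapped in 1 replicate each.

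The protein genes of the snoRNA particles were examined beside the RNA genes, as a list of 19 loci. Of these, 8 had peaks of all 3 replicates (42.1%), against 23.6% of all protein-coding genes, at a median length of 2375 bp against 2078 bp. Peaks were found at 10, 17 and 12 loci in replicates 1, 2 and 3 (52.6%, 89.5% and 63.2%), against 30.3%, 64.2% and 54.7% of all protein-coding genes, a background that replicate 3 exceeded least. The gene table names 9 of the loci, and the other 10 are given by locus code. FIB1, for fibrillarin, the methyltransferase of the C/D box particle, had folds of 3.88, 4.23 and 6.83 on chromosome 5. NAP57, for dyskerin, the pseudouridine synthase of the H/ACA particle, had 4.15, 7.49 and 4.37 on chromosome 3. NOP10, a core protein of that particle, had 3.55, 4.83 and 5.41. IMP4, of the U3 particle, had 4.45, 4.94 and 5.16, and the nucleolin gene NUC-L1 had 4.62, 3.57 and 5.08. AT5G20160 (3.57, 3.56 and 5.20), AT5G08180 (4.87, 3.70 and 4.31) and AT5G66540 (5.42, 3.15 and 3.67) were the others with peaks in all 3 replicates. The highest-scoring peak lay elsewhere along the gene in replicate 2 at NOP10 and in replicate 1 at AT5G08180, and at AT5G66540 its position differed in all 3 replicates.

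The second fibrillarin gene FIB2 (3.34 and 3.68) and NUC-L2 (3.33 and 3.86) had peaks in replicates 2 and 3 alone. NOP56, of the C/D box particle, had peaks in replicates 1 and 2, with folds of 4.27 and 3.35, and so had the assembly factor gene NUFIP, with 5.73 and 4.10. Both fibrillarin genes hold a snoRNA gene, and AT5G08180 holds 3. U60.1F in FIB1 was overlapped in replicate 2 alone, by a separate peak from 21295693 to 21296046 with a fold of 3.16. The highest-scoring FIB1 peak there ran from 21293705 to 21294636. U60.2F in FIB2 was overlapped in no replicate.

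The authors' list for the whole series, with a peak height in each of 3 samples, held few snoRNA genes. The stretch common to its 3 samples overlapped 6 members in 6 of its 3419 regions (2.09%), against 6.95% of all nuclear genes. All nuclear genes had a median length of 1796 bp against 92 bp for snoRNA genes, and the part of length was not tested. All 6 were among the 39 overlapped in all 3 replicates. Both kinds of list come from the same 3 ChIP samples, so this is not independent support. Heights were 251, 220 and 373 at AT3G58193, 262, 183 and 338 at U3D and 257, 161 and 305 at SNOR37-2. At AT2G09680 they were 170, 196 and 270, at AT1G09467 170, 126 and 263, and at AT2G08910 141, 134 and 229. The list does not say which replicate each column is. The median of the mean heights was 226.5 for these 6 regions and 167 for the whole list.

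A group that stood apart, chosen after its values were seen, were snoRNA genes that overlap a gene typed ncRNA in the table. There were 19 of them in 9 such ncRNA genes. Peaks overlapped 12, 15 and 15 of the 19 (63.2%, 78.9% and 78.9%). The shares were 17.9%, 41.8% and 33.2% of the other 268 members and 25.5%, 54.2% and 45.7% of all nuclear genes. Each of the 19 was overlapped in at least 1 replicate, as were 148 of the 268 and 24281 of all 37899 nuclear genes. Peaks of all 3 replicates overlapped 9 of the 19, against 30 of the other 268 members. The 9 were AT1G05247, AT1G05417, AT1G05433, AT2G09465, AT2G09680, AT2G09685, AT2G09690, AT3G01145 and AT3G01155. They lie at 5 places, and members at one place share peaks. Of all 221 ncRNA genes, 37 (16.7%) had peaks of all 3 replicates, and so had 5 of the 9 that hold these members.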

How the data were processed

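Replicates were grouped by their titles. For alignment the submitters' processing notes list Bowtie and the TAIR10 genome; for the peak caller and its background, no name was given in the sources used here. Each replicate has 1 list without a header, whose columns were identified by layout. In it, the authors give per peak a whole-number tag count, apparently not normalised. A score deposited beside it was taken for a scaled −log10 p-value. The fold enrichment of the authors is a ratio over an unstated background. False discovery rates were deposited in percent. Heights in the series-wide list of the authors are signal values, whole numbers of at least 40, with unstated scaling.

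Gene names, types and positions were taken from a RefSeq table of TAIR10.1, whose coordinates are not printed; peak coordinates are in TAIR10. Overlap of at least 1 bp was counted with Python 3.11.15 and pandas 2.3.3, after a test on simulated data with 200 planted peaks. Classes were compared by the two-sided exact sign-flip permutation test over replicates. Genes of a cluster share peaks and are not replicates. Each gene is represented by its highest-scoring peak. Named were the 12 members with the highest mean score percentile among those overlapped in all 3 replicates, the 5 largest clusters (ties by locus order), U3 genes, series-list members, protein-list loci with peaks in all 3 replicates, and hosts. Genes with symbols, the highest fold per list and other groups were added after their values were seen. Members, lists and classes were chosen with earlier results of these data known. Sequences and the planned promoter motifs were not analysed here.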

Additional observations from a re-analysis of the deposited data

How the results depend on the processing

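The lower overlap of snoRNA genes inside protein-coding genes kept its direction under all settings tried, but its size varied. For peaks of all 3 replicates, the inside share minus the outside share was −5.75 percentage points. It was −1.48 with the peak midpoint near the gene, where only 3 genes were overlapped, and −10.2 without replicate 3. Far genes count as outside, although their share of 7.32% was no higher than the 9.52% inside. The count of 39 genes with peaks of all 3 replicates was 28 with the gene midpoint in the peak and 29 at a false discovery rate of at most 1%. It moved to 18 with scores of at least 100, to 19 with 8423 peaks in each list and to 3 with the peak midpoint within 200 bp of the gene. Leaving out a replicate, and counting genes overlapped in both others, gave 48 to 67 genes, the highest without replicate 1. The count of 85 genes in at least 2 replicates moved to 49 with equal lists, to 21 with the peak midpoint near the gene, and was 48 to 67 without 1 replicate. Apart from the gene midpoint rule, these settings were not applied to all nuclear genes, so the background share under them is unknown. The difference between clustered and single genes, 1.21 percentage points, reversed to −0.483 with the peak midpoint near the gene, to −1.55 at the stricter false discovery rate and to −0.561 with equal lists. It lay between −6.41 (without replicate 1) and 1.64 (without replicate 3), with −2.11 without replicate 2. The mean of the median score percentiles, 54.8, moved to 68.7 with scores of at least 100, where low ranks are removed by construction. The other causes were not tested. No 2 snoRNA genes overlap each other, so merging them changed nothing. No paired analysis was possible because there is 1 condition. The unknown depth gives no interval, and genes missed by a few bp count as not overlapped: SNOR95 missed a peak by 1 bp in replicate 2 and AT2G08765 was overlapped by 1 bp in replicate 1.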
